A study of Sus scrofa with 2 samples.

Results

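The genes described here mark the spiral ligament and neighbouring parts of the cochlear wall. They are COCH, OTOS, POU3F4, TBX18, SLC26A4, CRYM, CA3 (also called CAR3), OTOR and EPYC, which are 9 genes under 10 names. They were chosen by name from a table of 27622 features, and 8 of the 9 genes were found in it. Of these, 7 carried the name as a deposited symbol, and CRYM (ENSSSCG00000007849) was matched by its Ensembl identifier. OTOS, which encodes the fibrocyte protein otospiralin, could not be matched to a feature by symbol, description or identifier and was not analysed here. RNA had been sequenced from the lateral wall of the cochlea, dissected with its stria vascularis (SV). Each genotype, Mitf R/r and Mitf r/r, was represented by 1 library. The r allele, found in albino Rongchang pigs with profound hearing loss, carries short insertions in the distal part of the melanocyte promoter of MITF. R/r animals carry 1 r allele, so neither library stands for wild-type tissue. The MITF feature of the highest level had 51.7 RPKM in R/r and 37.8 RPKM in r/r, and the other MITF features were also lower in r/r. The paper states that gene RPKM cannot separate the M transcript. By exon, it reports the M-exon far lower in r/r than these gene values. The sample labels place both at postnatal day 1, whereas the paper places them in the embryonic period. The number of animals behind each library is not given in the sources used here.

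The lateral wall is made of the SV, an epithelium that secretes potassium and holds the melanocyte-derived intermediate cells, and of the spiral ligament behind it. The ligament is a connective tissue of fibrocytes in a fibrous matrix. Its fibrocytes take up potassium that leaves the hair cells and pass it through gap junctions to the basal cells of the SV. The fibrocytes come from the mesenchyme around the otic vesicle and depend on the transcription factors encoded by POU3F4 and TBX18. Human mutations in COCH, POU3F4, SLC26A4 and CRYM are known causes of deafness.

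The genes fell into distinct tiers of expression in both libraries (plot of levels by gene). OTOR and COCH stood among the 10 most abundant features, EPYC and CA3 among the 50 most abundant, TBX18, POU3F4 and CRYM in the upper part of the range, and SLC26A4 near the limit of detection. None of the 7 genes compared differed 2-fold between the 2 libraries, and SLC26A4 was too low to be compared. COCH was lower in the r/r library, and OTOR, EPYC, CA3, TBX18 and CRYM were higher. Because the wall was taken whole, fewer cells of a type and less RNA per cell cannot be told apart in any of these differences.

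**Figure D1:**
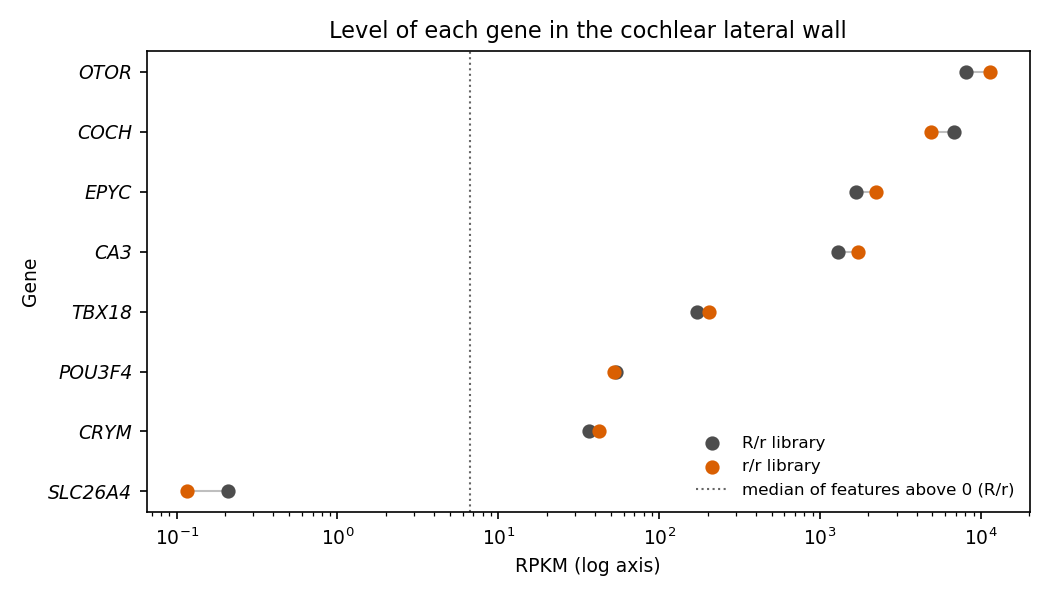
RPKM of the 8 genes on a log axis in the R/r library (grey) and the r/r library (orange), 1 library each, with the median of all features above 0 in the R/r library (6.71 RPKM) as a dotted line. OTOR, COCH, EPYC and CA3 lie above 1000 RPKM in both libraries, and SLC26A4 alone lies below the median.

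Levels are given as RPKM, the reads of a gene scaled to the length of its exon model and to the mapped reads of the library. The RPKM values were traced back to whole reads, which gave 15829244 mapped reads for the R/r library and 14258672 for the r/r library. The lowest pair of whole read numbers that fitted a gene is stated, and the true reads may be a multiple of it. With 1 library per genotype there was no replicate and no test. Intervals of 95% are exact Clopper-Pearson intervals on these reads and cover counting error only. Those of ratios between 2 genes, relative to COCH or between neighbours in level, are normal approximations on the log scale from the same reads. Differences were therefore also set beside those of 5280 genes with at least 1000 reads over both libraries, of which the central part, from the 5th to the 95th percentile, had log2 ratios from -0.30 to 0.25.

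COCH (ENSSSCG00000022679) encodes cochlin, the most abundant non-collagen protein of the inner ear matrix. It had 6826 RPKM in the R/r library and 4914 RPKM in the r/r library. These came from 266458 and 172781 reads over an exon model of 2466 bases. COCH alone took 1.68% of all mapped reads of the R/r library (95% interval 1.68 to 1.69) and 1.21% of those of the r/r library (1.21 to 1.22). Its rank among all features was 7 in R/r and 9 in r/r. The log2 ratio, r/r over R/r, was -0.47 (95% interval -0.48 to -0.47), a level 1.39-fold higher in the R/r library. Among the genes with at least 1000 reads, 2.20% had a lower ratio than COCH.

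OTOR (ENSSSCG00000007082) encodes otoraplin, a small secreted protein made in the cochlear wall and related to the cartilage protein MIA. Its level was 8061 RPKM in the R/r library, where it ranked 4th, and 11327 RPKM in the r/r library, where it ranked 3rd. Above it in the R/r library stood CLU, which encodes the secreted chaperone clusterin, with 10742 RPKM, and the mitochondrial genes MT-CO1 and MT-CO3 with 10657 and 8623 RPKM. The log2 ratio of OTOR was 0.49 (0.47 to 0.51), from 49762 and 62989 reads. The exon model found for OTOR was only 390 bases long. Of the genes with at least 1000 reads, 1.19% had a higher ratio.

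EPYC (ENSSSCG00000000918) encodes epiphycan, a small leucine-rich proteoglycan of cartilage and of the cochlea. It had 1676 RPKM in the R/r library and 2234 RPKM in the r/r library. Its log2 ratio of 0.41 (0.37 to 0.46) rested on 8518 and 10226 reads or a common multiple of them, as the model length found with them was 321 bases. The rank of EPYC was 25 in R/r and 15 in r/r.

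CA3 (ENSSSCG00000006141) encodes carbonic anhydrase III, an enzyme of bicarbonate formation that is best known from skeletal muscle and fat and is also made by fibrocytes. Its level was 1296 RPKM in the R/r library and 1712 RPKM in the r/r library, with ranks of 43 and 25. The log2 ratio was 0.40 (0.38 to 0.42), from 38345 and 45630 reads. Of 9 skeletal muscle genes listed, 6 were matched, without TNNT3, MYH8 and MB. Their summed level was 18.3 RPKM in the R/r library and 16.4 RPKM in the r/r library. ACTA1, the actin of skeletal muscle, was listed at 0 in the R/r library and had 0.0470 RPKM in the r/r library, while the embryonic myosin MYH3 had 12.0 and 11.2 RPKM. Of 7 fat cell genes listed, 3 were matched. LEP was listed at 0 in both libraries, PLIN1 was at 0.120 and 0.0444 RPKM by 3 and 1 reads, and ADIRF had 0.453 and 93.6 RPKM by 3 and 558 reads (log2 ratio 7.69, 95% interval 6.14 to 9.97). Whether muscle or fat cells had a part in the CA3 levels was not tested.

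The transcription factor genes were expressed at lower but ample levels. TBX18 (ENSSSCG00000004290), needed for otic mesenchyme to become fibrocytes, had 172 RPKM in the R/r library and 205 RPKM in the r/r library. Its log2 ratio was 0.25 (0.22 to 0.29), from 10943 and 11761 reads, and 4.89% of the genes with at least 1000 reads had a higher ratio. POU3F4 (ENSSSCG00000012454), on the X chromosome and mutated in a form of mixed deafness, had 54.2 RPKM and 52.6 RPKM. Its log2 ratio was -0.04 (-0.17 to 0.09), from 1069 and 935 reads, so that a difference was not detectable at this depth. Both genes exceeded more than 90% of the features above 0 in their library.

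CRYM encodes mu-crystallin, a thyroid hormone binding protein found in fibrocytes. It had 36.4 RPKM in the R/r library and 42.1 RPKM in the r/r library, from 793 and 826 reads. The log2 ratio of 0.21 (0.07 to 0.35) lay within the central part of the ratios of deeply read genes.

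SLC26A4 (ENSSSCG00000028969) encodes pendrin, the anion exchanger that brings bicarbonate into the endolymph and is known from root cells, outer sulcus and spindle cells of the lateral wall. It had only 0.209 RPKM in the R/r library, from 8 reads, and 0.116 RPKM in the r/r library, from 4 reads. These values exceeded 8.40% and 5.27% of the features above 0. The interval of its log2 ratio, from -3.03 to 1.05, spanned no change, and the value of -0.85 is that of 12 reads in all. A count of 0 would have allowed up to 0.0783 RPKM and 0.0870 RPKM. Of the other genes in the root cell and outer sulcus list, KCNJ16, ANXA1 and BMP4 were far higher, and FOXI1 and LGR5 were also near or at 0. KCNJ16, a potassium channel of root cells and fibrocytes, had 47.0 RPKM in the R/r library and 50.9 RPKM in the r/r library, which was 225 and 439 times the level of SLC26A4. ANXA1 had 523 and 303 RPKM (log2 ratio -0.79). FOXI1, a known regulator of SLC26A4 in the endolymphatic duct, was listed at 0 in both libraries, LGR5 had 0.635 and 1.08 RPKM, and BMP4 had 16.6 and 19.6 RPKM. All 6 genes of this list were matched and 4 of them were compared, with a median log2 ratio of 0.18, 0 genes 2-fold apart, and a summed level of 588 and 374 RPKM.

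The order of the genes by level was the same in both libraries, from OTOR through COCH, EPYC, CA3, TBX18, POU3F4 and CRYM to SLC26A4. All neighbours in this order differed beyond counting error in each library. The closest were OTOR and COCH in the R/r library, with OTOR 1.18 times COCH (1.17 to 1.19). In the r/r library OTOR was 2.31 times COCH (2.28 to 2.33). POU3F4 exceeded CRYM 1.49-fold in the R/r library and 1.25-fold in the r/r library (1.14 to 1.37). Such levels depend on the exon models used, since a short model counts only part of a transcript. The 8 genes in sum held 2.37% (R/r) and 2.14% (r/r) of the mapped reads, by the lowest read numbers that fitted. Per length the direction was opposite, with 18122 and 20488 summed RPKM, or 3.02% and 3.33% of the RPKM of all features.

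**Figure D2:**
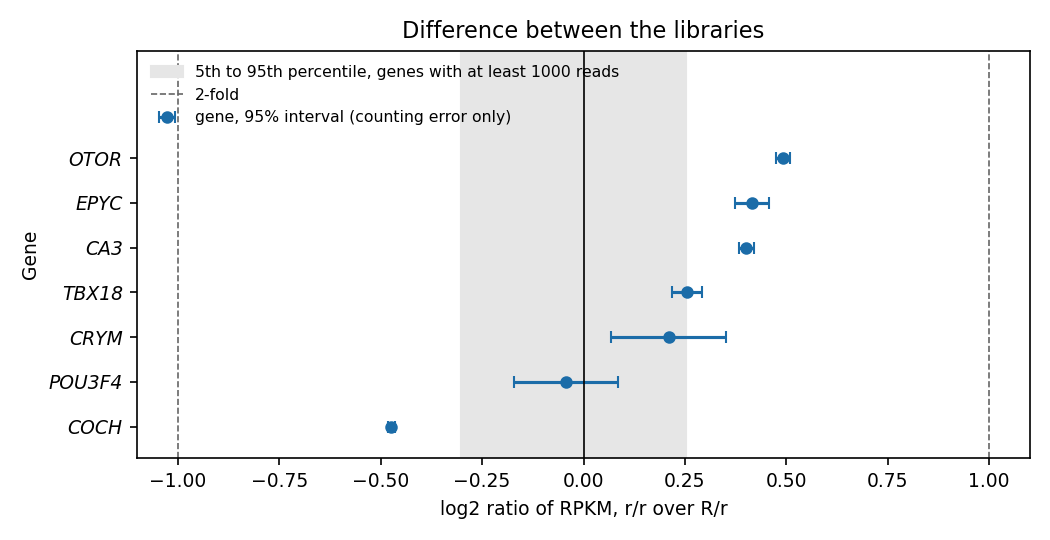
Log2 ratio of RPKM, r/r over R/r, for the 7 genes with at least 1 RPKM, with 95% intervals for counting error, 1 library per genotype. The grey band is the range from the 5th to the 95th percentile of genes with at least 1000 reads (-0.30 to 0.25). COCH lies to the left of it, OTOR, EPYC and CA3 lie to the right with TBX18 just past its edge, and all stay within the dashed 2-fold lines.

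Of the 8 genes, 7 were above 0 in both libraries with at least 1 RPKM in one and could be compared with the 16331 genes that met this rule. The number at least 2-fold apart was 0 of 7, against 3.99% of all genes compared, of which 2.2% were lower and 1.78% higher in the r/r library. The counting interval lay off no change in 6 of 7, below it in 1 (14.5% of all genes compared) and above it in 5 (11.2%). Off no change in either direction were 25.7% of all genes compared and 41.9% of the genes with at least 1000 reads. Such counts rise with depth. All genes compared had a median of 449 reads over both libraries, and each of the 7 exceeded that in either library alone. The shares by direction thus come mostly from less deeply read genes, and were not taken for deeply read genes alone. For 0 of 7 was the whole interval beyond 2-fold, against 0.649% of all genes compared. The median log2 ratio of the 7 genes was 0.25, beside -0.02 over all genes compared.

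Ratios between genes of the same library need no scaling between libraries. Relative to COCH, OTOR was 1.95 times as high in the r/r library as in the R/r library, on the log2 scale 0.97 (0.95 to 0.98). EPYC and CA3 differed in the same way by 0.89 (0.85 to 0.93) and 0.88 (0.85 to 0.90). TBX18 differed by 0.73 (0.69 to 0.77), CRYM by 0.68 (0.54 to 0.82) and POU3F4 by 0.43 (0.30 to 0.56). In all 6 the ratio to COCH was thus higher in the r/r library, while for SLC26A4 the interval of -2.11 to 1.36 spanned no change. Most genes would give the same direction, because COCH itself was lower in the r/r library. Of all genes compared, 91.5% had a higher log2 ratio than COCH, as had 97.8% of those with at least 1000 reads. The comparison with COCH was chosen after the values were seen.

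The genes nearest to COCH in their pair of log2 levels were S100B, EF1ALPHA and MT-CO2, named by the Euclidean distance over both libraries. S100B, which encodes a calcium binding protein, was 0.39 away, with 6091 RPKM in the R/r library and 6272 RPKM in the r/r library. EF1ALPHA, a translation elongation factor gene, was 0.41 away, and MT-CO2 was 0.61 away. None of these was lower in the r/r library, and their log2 ratios were 0.04, 0.08 and 0.07.

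Most of these genes belong to families, whose other members were read from the same libraries (plot of levels within families). VIT, which encodes vitrin and shares the domains of cochlin, had 109 RPKM in the R/r library and 101 RPKM in the r/r library. COCH was thus 62.3 and 48.6 times higher. MIA, the cartilage relative of OTOR, had 464 and 520 RPKM, below OTOR by 17.4-fold and 21.8-fold, and MIA3 had 21.6 and 20.6 RPKM. The nearest relatives of EPYC were unequal. OGN, which encodes osteoglycin, had 109 and 102 RPKM, and OPTC had 0.246 and 0.382 RPKM.

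CA2, the carbonic anhydrase common to many cells, had 368 and 388 RPKM, and CA3 was 3.52 and 4.41 times higher. CA1 was listed at 0 in both libraries. In the subfamily of TBX18, TBX15 and TBX22 stayed under 1 RPKM in both libraries. POU3F4 was not the highest gene of its family. POU3F3, a neighbour by sequence that is best known from brain and kidney, had 152 RPKM in the R/r library and 162 RPKM in the r/r library, 2.80 and 3.08 times POU3F4. POU3F2 had 7.23 and 12.1 RPKM, by 152 and 229 reads, and its log2 ratio of 0.74 (0.44 to 1.05) was the widest ratio of the relatives compared. POU3F1 had 0.130 and 0.0719 RPKM.

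**Figure D3:**
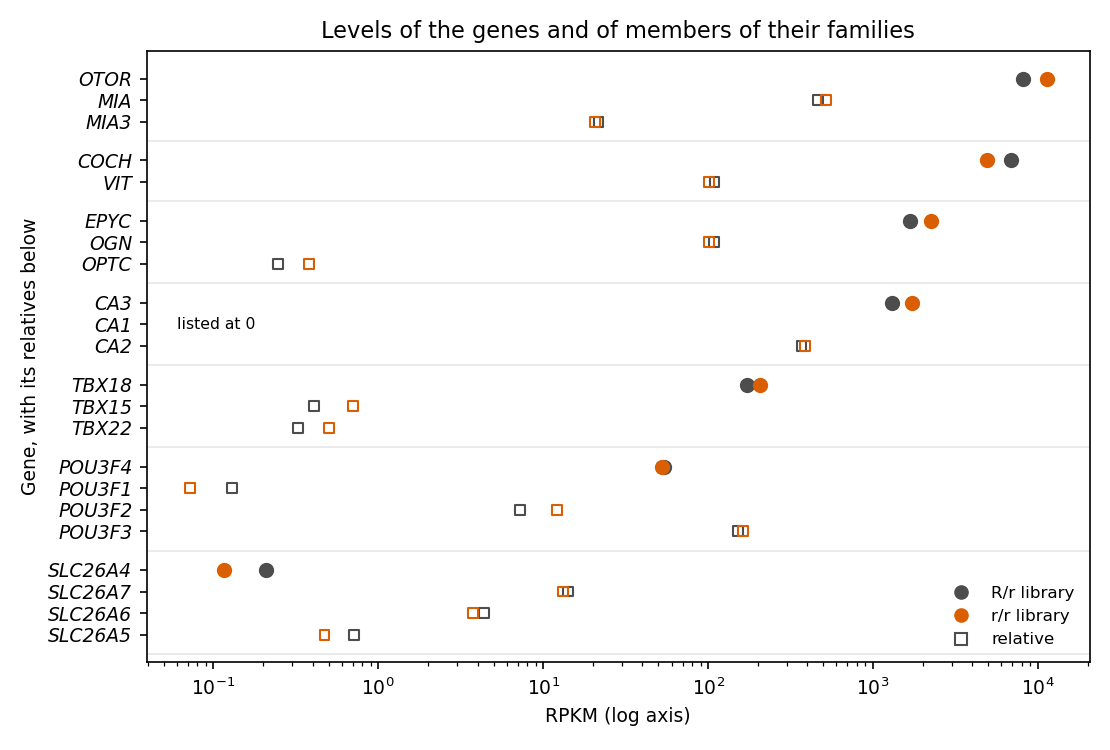
RPKM on a log axis of 7 genes (filled circles) and of relatives from their families (open squares) in the R/r library (grey) and the r/r library (orange), 1 library each. OTOR, COCH, EPYC, CA3 and TBX18 are the highest of their groups, while POU3F3 lies above POU3F4 and SLC26A7, SLC26A6 and SLC26A5 lie above SLC26A4.

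Among anion exchangers of the SLC26 family, SLC26A7 had 14.1 RPKM in the R/r library and 13.2 RPKM in the r/r library, 67.4 and 113 times SLC26A4. SLC26A6 had 4.36 and 3.75 RPKM. SLC26A5, which encodes the hair cell motor protein prestin, had 0.710 and 0.473 RPKM, and SLC26A3 was listed at 0 in the R/r library and had 1 read in the r/r library. Of 18 relatives listed, 16 were matched and 9 were compared, with a median log2 ratio of -0.07 and 0 genes at least 2-fold apart. MIA2 and SLC26A9 were not matched.

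Other genes of the spiral ligament were taken from a list of 20, of which 17 were matched and 16 compared. GJB2, GJB6 and AQP1 were not matched and were not analysed here. None of the 16 was 2-fold apart. The log2 ratio was above 0 in 12 and below 0 in 4, with a median of 0.11. The interval lay above no change in 7 and below it in 4. The summed level was 4984 RPKM in the R/r library and 5326 RPKM in the r/r library.

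Within that list, VIM, the intermediate filament gene of fibrocytes, had the highest level with 1939 and 2065 RPKM (log2 ratio 0.09). S100A1 had 1043 and 1218 RPKM (0.22). SLC12A2, which encodes the sodium, potassium and chloride cotransporter that loads fibrocytes and marginal cells with potassium, had 312 and 334 RPKM (0.10). ATP1B1, which encodes a beta subunit of the sodium pump, had 288 and 345 RPKM (0.26). EMILIN2, a matrix glycoprotein gene, had the highest ratio, with 52.6 and 89.6 RPKM (0.77, 95% interval 0.70 to 0.84). The proteoglycan genes DCN and LUM were opposed. DCN had 214 and 153 RPKM (-0.48), close to the ratio of COCH, and LUM had 107 and 134 RPKM (0.33).

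**Figure D4:**
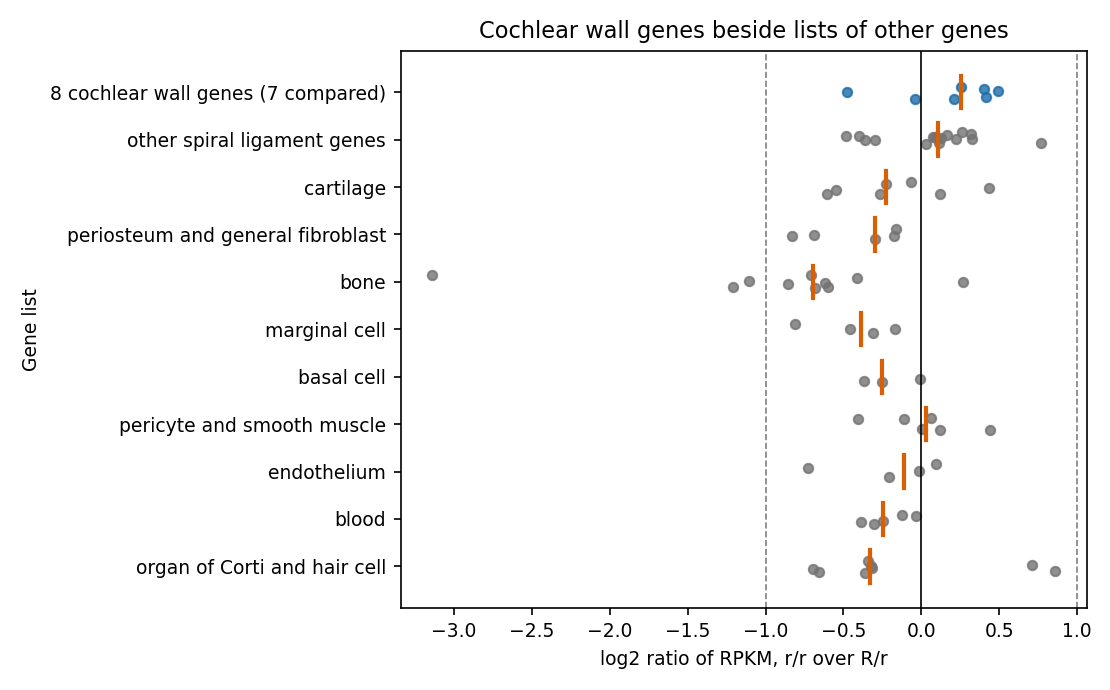
Log2 ratio of RPKM, r/r over R/r, of each compared gene (points) and the median (orange line) for the 7 cochlear wall genes and for 10 lists of other genes, without the melanocyte, root cell, muscle, fat and neuron lists and the family relatives, 1 library per genotype, with dashed lines at 2-fold. The cochlear wall genes and the other spiral ligament genes have medians above 0, the bone list has the lowest median of the lists drawn (-0.70), and MEPE is the bone gene at the far left (-3.14).

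Genes of other tissues near the ligament also differed, and their part in the values above was not tested. The periosteum and general fibroblast list was lower in the r/r library in 5 of 5 genes, with a median of -0.30 and summed levels of 384 and 288 RPKM. THY1 had 54.3 and 30.6 RPKM, and POSTN had 97.5 and 60.4 RPKM. The bone list was lower in 9 of 10, with a median of -0.70, 3 genes at least 2-fold lower (DMP1, MEPE and COL1A1), and summed levels of 1053 and 690 RPKM. COCH and DCN were also lower in the r/r library, but this direction was not particular to the bone and fibroblast lists. Medians were below 0 as well in the cartilage, marginal cell, basal cell, endothelial, blood and organ of Corti lists.

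The cartilage list held genes of both directions. Of 9 genes matched, 7 were compared. The r/r level was below the R/r level in 5 and above it in 2, with a median of -0.23 and summed levels of 5191 and 5044 RPKM. The collagen genes COL2A1 and COL9A1 had 1773 and 1684 RPKM in the R/r library and 1474 and 1440 RPKM in the r/r library, log2 ratios of -0.27 and -0.23. CNMD, which encodes chondromodulin, had 1200 RPKM in the R/r library and 1620 RPKM in the r/r library, so that its log2 ratio was 0.43 (0.39 to 0.47) beside the 0.41 of EPYC. COL11A1 had 507 and 485 RPKM, and HAPLN1 had 16.5 and 17.9 RPKM. The other members were low, with MATN3 at 2.03 and 1.39 RPKM. MATN1 had 0.0424 and 0.329 RPKM by 1 and 7 reads, COMP was under 1 RPKM in both libraries, and ACAN had 8.47 and 5.56 RPKM.

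The melanocyte and intermediate cell list, the cells that depend on MITF, had 7 of 8 compared genes at least 2-fold lower, a median of -5.59 and summed levels of 336 and 53.0 RPKM. KIT was the exception, with 43.6 and 44.2 RPKM. Marginal cell genes were lower in 4 of 4 compared (median -0.38, summed levels 1273 and 834 RPKM) and, beyond counting error, basal cell genes in 2 of 3 (median -0.25, 984 and 833 RPKM), with 0 genes at least 2-fold apart in either list. The other basal cell gene, TJP1, had 71.7 and 71.5 RPKM. CLDN11, the tight junction gene of basal cells, had 840 and 706 RPKM. Pericyte and smooth muscle genes, a class in which TBX18 is also active, had a median of 0.03 over 6 genes compared and summed levels of 180 and 179 RPKM. Endothelial genes had a median of -0.11 (212 and 203 RPKM), and blood genes had a median of -0.25 (3036 and 2451 RPKM). Of the neuron and Schwann cell genes, SOX10 had 5.20 and 4.50 RPKM.

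Neighbours on the chromosome were the nearest named protein-coding genes that matched a feature, in the order of RefSeq genes in assembly Sscrofa11.1. Those of COCH, OTOR and EPYC were far less expressed than the genes they flank. STRN3 and SCFD1 flank COCH and had 17.6 and 38.2 RPKM in the R/r library, with log2 ratios of 0.15 (-0.35 to 0.65) and 0.04 (-0.08 to 0.17). KERA, another small leucine-rich proteoglycan gene, lies next to EPYC and had 28.7 RPKM in the R/r library and 35.7 RPKM in the r/r library, a log2 ratio of 0.31 (-0.0031 to 0.63). On the other side of EPYC, CCER1 had 0.259 and 0.172 RPKM. KIF16B and PCSK2, the nearest matched genes on either side of OTOR, had 24.8 and 36.5 RPKM in the R/r library. Their log2 ratios were 0.16 and -0.40. Between KIF16B and OTOR lay 1 protein-coding gene without a match. The neighbours of SLC26A4 were expressed, with BCAP29 at 37.0 and 37.4 RPKM and CBLL1 at 6.66 and 5.53 RPKM. Beside POU3F4, CYLC1 was listed at 0 in both libraries and SH3BGRL had 3.22 and 3.29 RPKM.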

How the data were processed

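Alignment by the authors was to Sscrofa10.2 with TopHat2 (2.0.7), and they deposited an RPKM for every gene and library. The counting program, its use of strand and the gene annotation are not given in the sources used here. Another 2 columns, with the authors' differences and ratios for other genes, were not used. Names came from the deposited symbols (16376 features) and an Ensembl name table (1794).

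Log2 ratios of RPKM (r/r over R/r) were taken with no pseudocount where both libraries were above 0 and one reached 1 RPKM. Genes were counted past 2-fold, the fold limit of the paper. The paper's own list of such genes is shorter and gives a p-value for each, which was not used here. No test was possible with 1 library each. Library totals were found from mitochondrial gene lengths in RefSeq (8 of 13 shared 1 total), and whole reads were found for 20862 of 20862 features above 0. The steps were tested on simulated data. These genes and the lists of other genes were chosen with earlier results of these data known. Genes named from a list are those at least 2-fold apart, those at 0 that define a cell type and up to 4 of the highest level. Others named (EMILIN2, DCN, LUM, ATP1B1, LGR5, BMP4 and members of the cartilage, muscle, fat, organ of Corti, fibroblast and family lists) were chosen after their values were seen. Alternatives were pseudocounts, minimums, scalings, thresholds and summed features. The software was scipy 1.17.1 for intervals, pandas 2.3.3 and numpy 2.4.6 under Python 3.11.15, with plots by matplotlib 3.10.9. Some genes of the lists are not reported here by name.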

Additional observations from a re-analysis of the deposited data

How the results depend on the processing

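No paired analysis was possible because each genotype had a single library. Under every pseudocount, minimum and scaling tried, 0 of the cochlear wall genes compared were 2-fold apart, beside 3.99% of all genes compared as reported. At a threshold of 1.5-fold the count was also 0, and the 0 at 4-fold follows from that at 2-fold. The count was 6 when a counting interval off no change was asked for instead, a rule chosen after seeing the data. The median log2 ratio of 0.25 stayed between 0.22 and 0.27. Of 71 values of single genes under the alternatives of scaling, minimum, pseudocount and summed features, 0 changed sign. Counting intervals were left by 7, all of them COCH, CA3 or OTOR under another scaling. Minimums and summed features could not change a ratio, as each gene compared was above every minimum and had 1 feature. The pseudocounts were small beside the levels. Only the scalings could thus move these values, and POU3F4, with the ratio nearest 0, ranged from -0.08 to -0.02. COCH ranged from -0.51 to -0.46 and OTOR from 0.46 to 0.51. The scalings moved the median of all genes to values from -0.05 to 0. Among named Ensembl features alone, POU3F4 and CRYM stood at the 88.8th and 83.0th percentiles in the R/r library, in place of the 90.8th and 85.9th. Depth limits SLC26A4.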

Other observations

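The lateral wall lies beside the organ of Corti, whose genes were listed as a check. Of 12 genes listed, 10 were matched and 8 compared, with log2 ratios below 0 in 6 and above 0 in 2, a median of -0.33 and summed levels of 141 RPKM in the R/r library and 203 RPKM in the r/r library. CEACAM16, which encodes a protein of the tectorial membrane, had 102 RPKM in the R/r library and 167 RPKM in the r/r library, a log2 ratio of 0.71 (95% interval 0.62 to 0.80). TECTA, which encodes another protein of that membrane, had 5.38 and 9.78 RPKM (0.86, 0.59 to 1.13). Other genes for proteins of the tectorial membrane or its attachment had ratios below 0, with OTOG at -0.32, OTOGL at -0.65, TECTB at -0.36 and OTOA at -0.34. The intervals of OTOG and OTOGL lay below no change, and those of TECTB and OTOA spanned it. The hair cell genes MYO15A and POU4F3 stayed under 1 RPKM in both libraries, and MYO7A had 1.46 and 0.902 RPKM.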
